A study of Mus musculus with 8 samples.

Results

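The 10 genes described here encode 7 matrix metalloproteinases (Mmp2, Mmp3, Mmp9, Mmp10, Mmp13, Mmp14 and Mmp15) and 3 of their tissue inhibitors (Timp1, Timp2 and Timp3). They were taken by name from the 53697 genes of the count table, and all 10 passed the filter on low counts that left 18322 genes for testing. RNA was sequenced from 8 libraries of mammary tumor cells of 4 mice, with 1 Dll1+ and 1 Dll1- library from each mouse. All mice carried MMTV-PyMT, a transgene that drives the polyoma middle T oncogene from the mouse mammary tumor virus promoter, on a C57BL/6 background. Mice 1 and 2 were PyMT-Dll1GFP, with GFP-IRES-Cre-ERT2 knocked into Dll1, and mice 3 and 4 were PyMT-Dll1mCh, with mCherry driven from a BAC that carries Dll1 sequence; they are called GFP and mCh mice below. Cells bearing CD45, CD31 or TER119 were removed before the reporter was used to sort Dll1+ from Dll1- cells. No treatment is given for these mice, and their age and the number of reporter alleles are not given in the sources used here. The reporter alleles also differ in how they read Dll1, so a difference between the reporters cannot be told apart from a difference between the 2 pairs of mice.

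Matrix metalloproteinases (MMPs) are zinc enzymes that cut collagens, laminins and other matrix proteins, and are made as inactive precursors. Most are secreted, while the membrane types such as Mmp14 and Mmp15 are anchored at the cell surface, where Mmp14 activates the Mmp2 precursor with the help of Timp2. TIMPs bind the active site of MMPs, and Timp3 is held in the matrix and also blocks ADAM proteases. In mammary tumors many secreted MMPs come mainly from stromal cells such as fibroblasts and leukocytes, and epithelial cells make others.

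Mmp3, Mmp10 and Mmp13, the stromelysins and a collagenase, lie in the MMP cluster on chromosome 9, transcribed from the + strand in GRCm38. Mmp13 spans 7272514 to 7283331, Mmp3 spans 7445822 to 7455975 and Mmp10 spans 7502352 to 7510240, with Mmp12 and Mmp1b between Mmp13 and Mmp3. RefSeq start sites (GRCm38.p6) were held for 8 of the 10 genes, all but Mmp2 and Mmp9. The 250 bases before the start of these 3 genes are shown because they share a pair of motifs in the same order, with AP-1 (TGANTCA) and then TATAAA, both in capitals.
Mmp3, chr9:7445572-7445821, + strand: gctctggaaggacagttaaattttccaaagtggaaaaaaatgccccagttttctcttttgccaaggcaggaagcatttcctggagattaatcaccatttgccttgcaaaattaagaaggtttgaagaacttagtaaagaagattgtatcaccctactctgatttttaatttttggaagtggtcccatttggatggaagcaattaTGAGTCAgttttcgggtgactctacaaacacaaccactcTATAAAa
Mmp10, chr9:7502092-7502341, + strand: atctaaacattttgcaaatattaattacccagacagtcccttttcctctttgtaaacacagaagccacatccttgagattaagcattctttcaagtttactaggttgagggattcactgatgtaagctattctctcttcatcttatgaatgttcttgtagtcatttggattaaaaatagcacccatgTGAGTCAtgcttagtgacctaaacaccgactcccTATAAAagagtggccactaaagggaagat
Mmp13, chr9:7272264-7272513, + strand: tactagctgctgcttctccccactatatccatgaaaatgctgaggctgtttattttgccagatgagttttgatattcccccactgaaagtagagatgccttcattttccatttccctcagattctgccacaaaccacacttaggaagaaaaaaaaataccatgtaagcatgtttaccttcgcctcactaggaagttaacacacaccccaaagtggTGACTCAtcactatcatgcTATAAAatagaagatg
The AP-1 match began 46 bases before the start in Mmp3, 63 bases in Mmp10 and 35 bases in Mmp13, and the TATAAA match began 7, 29 and 16 bases before it. The TATAAA match was on the strand of the gene in all 3, while TGANTCA reads the same on both strands. Among 32851 mouse promoter windows of 250 bases, 6.75% held the AP-1 motif and 12.4% held TATAAA on either strand. The windows of Mmp14, Mmp15, Timp1, Timp2 and Timp3 held neither, and none of the 8 held the CSL motif of the Notch pathway (GTGGGAA, in 5.42% of windows) or the NF-kB motif (in 7.25%). A match describes the letters of the window and not the use of a site. At these shares the absence of a motif from 8 windows is not unusual, and sites outside the 250 bases were not searched.

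The other 7 genes lie apart from that cluster. Mmp2, a gelatinase, lies on chromosome 8 from 92827291 to 92853420, and Mmp15 on the same chromosome from 95352268 to 95375080. Mmp9, the other gelatinase, spans 164940780 to 164955850 on chromosome 2, and Mmp14 spans 54431612 to 54445364 on chromosome 14. Timp1 spans 20870166 to 20874735 on chromosome X and overlaps Syn1 on the opposite strand. Timp3 spans 86300372 to 86349506 on chromosome 10 and overlaps Syn3, also on the opposite strand. Timp2 spans 118301069 to 118355740 on chromosome 11, on the - strand, and overlaps Cep295nl on the same strand. Values are for whole genes, over all their annotated exons, and the strand setting of the counting is not given in the sources used here. Mmp3 and Mmp10 are close relatives, and how reads that match both were shared rests on the estimate of the mapping tool.

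Libraries held between 27301396 and 123907626 counts, with a median of 38191068, so that 3 counts stood for 0.024 to 0.105 CPM (counts scaled to libraries of a common size, after TMM normalization). Dll1 was at 7.61 to 50.3 CPM in the Dll1- and 87.5 to 250.2 CPM in the Dll1+ libraries, and was higher in the Dll1+ library of every mouse. The summed level of 10 luminal epithelial markers was 6220 to 10122 CPM, and all were detected in every library. Summed levels of 12 fibroblast markers were 1291 to 1523 CPM in the GFP mice and 3801 to 24905 CPM in the mCh mice. Within the mCh mice that sum was lower in Dll1+ than in Dll1- cells, at 3801 against 8652 CPM in mouse 3 and 3948 against 24905 CPM in mouse 4. Macrophage markers (9 genes) summed to 97.5 to 125 CPM in the GFP mice, 263 to 274 CPM in the mCh Dll1+ cells and 590 to 617 CPM in the mCh Dll1- cells. Ptprc, which encodes CD45, was at 2.88 to 12.7 CPM, and Pecam1, which encodes CD31, at 13.7 to 98.2 CPM, so that RNA of both sort markers was detected. No fibroblast, macrophage or endothelial marker was at 0, and of the 8 neutrophil markers Ly6g, Retnlg and Camp were at 0 in 3 or more GFP libraries.

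The genes differed widely in level, and their order differed between the reporters. Levels per kilobase used all annotated exons of a gene, with 5960 bases over 7 transcripts for Mmp14 and 5397 bases over 2 for Mmp15. Which transcripts were present was not known, so an order or ratio between genes rests on these lengths. Per kilobase of exon, Timp2 was the highest of the 10 in both groups of GFP mice, with a mean of 59.7 CPM per kb in Dll1- cells and 53.2 in Dll1+ cells. Mmp15, at 35.1 and 47.9 CPM per kb, was next in both, and neither overlapped its neighbors in that order. Below these came Mmp14, Timp3 and Mmp2, whose ranges overlapped from each to the next in the GFP Dll1- cells (means of 11.3, 10.3 and 9.84 CPM per kb). Timp1 followed at 7.79 CPM per kb, and Mmp3 and Mmp13, at 1.93 and 1.70, could not be ranked apart. Mmp9 and Mmp10 were the lowest in every group, at 0.136 and 0.139 CPM per kb in the GFP Dll1- cells.

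In the mCh Dll1- cells the order was led by Mmp2, with a mean of 139.6 CPM per kb and mice at 80.9 and 198.2. Timp2 was next at 87.8 CPM per kb and overlapped Mmp2. Timp1 (55.0), Mmp3 (53.9) and Mmp14 (52.4) followed, each overlapping the next, and Mmp15 was sixth at 25.0 CPM per kb. In the mCh Dll1+ cells Timp2 led at 70.1 CPM per kb, and each gene from Timp2 to Timp1 overlapped its neighbor in the order Timp2, Mmp2, Timp3, Mmp15, Mmp14, Timp1. The upper genes of the mCh Dll1+ cells could thus not be ranked against their neighbors beyond the spread of the 2 mice.

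**Figure D1:**
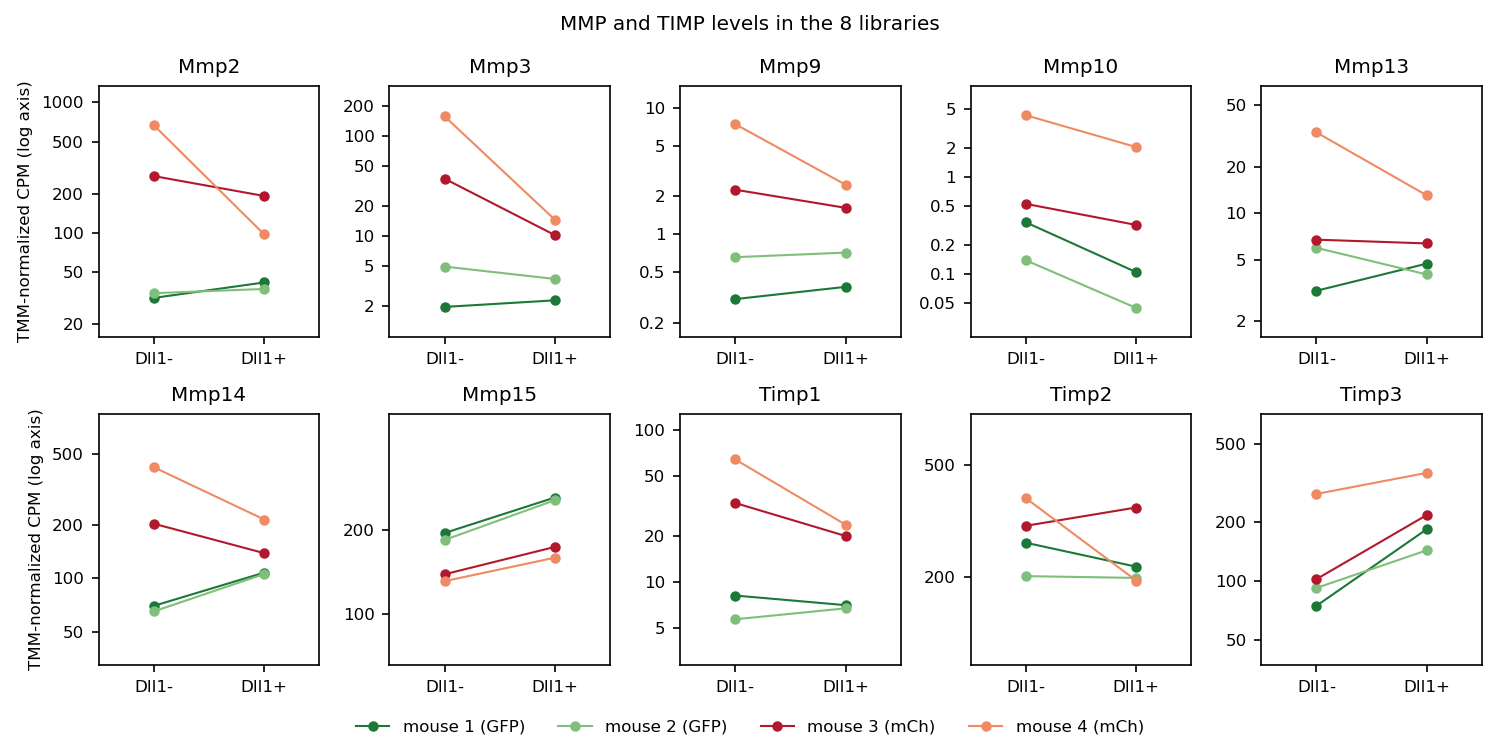
Level of each of the 10 genes in CPM after TMM normalization (log axis, a separate scale for each gene) in Dll1- and Dll1+ cells, with a line joining the libraries of each mouse. Timp3 and Mmp15 rise from Dll1- to Dll1+ in all 4 mice and Mmp10 falls in all 4, while Mmp14 rises in the GFP mice and falls in the mCh mice.

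Dll1+ cells were compared with Dll1- cells of the same mouse to ask which of these genes go with Dll1. Over the 4 mice, 2 of the 10 genes were higher in Dll1+ cells (Timp3 and Mmp15) and 1 was lower (Mmp10), where 14% of all tested genes were called, 6.98% of them higher and 7.04% lower. The test was edgeR's quasi-likelihood F test with the mouse as a block, and a gene was called at an adjusted p under 0.05. The median log2 fold change of the 10 genes was -0.47, against -0.000684 for all tested genes. In bulk RNA, fewer cells of a type and less RNA per cell cannot be told apart.

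Timp3, the matrix-bound inhibitor, had the largest fitted increase of the 10 genes over the 4 mice. It rose from 74.9 to 184 CPM in mouse 1, from 92.4 to 144 CPM in mouse 2, from 102 to 217 CPM in mouse 3 and from 278 to 356 CPM in mouse 4. Dll1+ cells were therefore higher in every mouse, although the groups overlapped across mice, since the Dll1- cells of mouse 4 lay above the Dll1+ cells of the other 3 mice. The fitted increase was 1.79-fold (log2 0.84, SE 0.166, edgeR adjusted p = 0.0317, n = 4 mice). Without mouse 1, 2 or 3 the adjusted p was 0.0878, 0.0825 and 0.141, without the mouse block it was 0.186, and the increase in each of these fits was between 0.70 and 0.92 on the log2 scale. Within each reporter Timp3 did not pass the threshold, with log2 values of 0.97 (SE 0.251, edgeR adjusted p = 0.0987) in the GFP and 0.72 (SE 0.247, edgeR adjusted p = 0.144) in the mCh mice. The difference between the reporters was 0.24 on the log2 scale (SE 0.35, edgeR adjusted p = 0.834).

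Mmp15, a membrane-type MMP also called MT2-MMP, was 195 and 262 CPM in the Dll1- and Dll1+ cells of mouse 1, and 184 and 256 CPM in those of mouse 2. It was 139 and 174 CPM in mouse 3, and 131 and 159 CPM in mouse 4. All 4 mice were higher in Dll1+ cells, by 1.21-fold to 1.39-fold, and within each reporter the groups did not overlap. The fitted increase was 1.30-fold (log2 0.38, SE 0.0604, edgeR adjusted p = 0.0169, n = 4 mice). The adjusted p was 0.0733, 0.0655 and 0.0777 without mouse 1, 2 or 3, and 0.0255 without the mouse block. Among GFP mice alone the log2 fold change was 0.45 (SE 0.077, edgeR adjusted p = 0.0207), with an adjusted p of 0.165 without mouse 1, 0.2 without mouse 2 and 0.0818 without the mouse block. In the mCh mice it was 0.30 (SE 0.0769, edgeR adjusted p = 0.0538), and the reporters differed by 0.15 on the log2 scale (SE 0.109, edgeR adjusted p = 0.638).

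Epithelial marker sums were higher in the Dll1+ cells of every mouse as well. The luminal sum was 1.05-fold, 1.10-fold, 1.16-fold and 1.33-fold higher in mice 1 to 4, with none of its 10 genes called over the 4 mice. Its genes did not move together, and only Epcam, Krt8, Krt18 and Ehf were higher in the Dll1+ cells of each mouse. Cdh1, Krt19 and Cldn4 were lower in those of mice 1, 2 and 3, Krt7 in mice 1 and 2, Cldn3 in mouse 2 and Elf3 in mouse 1. The summed level of the 9 basal markers rose from 187 to 415 CPM in mouse 1, from 152 to 239 CPM in mouse 2, from 401 to 1428 CPM in mouse 3 and from 700 to 1521 CPM in mouse 4. Of the 9, 4 were called higher and none lower in Dll1+ cells in that fit, and none was at 0 in any library. Krt5, Krt14, Trp63, Oxtr and Cnn1 were higher in the Dll1+ cells of each mouse. Acta2 (213 to 172 CPM), Myh11 (46.3 to 34.8 CPM) and Mylk (48.8 to 25.4 CPM) were lower in those of mouse 4, as were Mylk in mouse 1 and Krt17 in mouse 2. The part of luminal and basal cells in the increase of Timp3 and Mmp15 was not tested. The fibroblast marker sum, by contrast, was lower in the Dll1+ library of each mouse, by 1.08-fold and 1.11-fold in the GFP mice and 2.28-fold and 6.31-fold in the mCh mice. Not all of its genes were lower in the GFP mice. Pdgfra was higher in the Dll1+ cells of both, as were Lum, Dpt and Fap in mouse 1 and Thy1 in mouse 2.

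Mmp10, or stromelysin 2, was the lowest in counts. The Dll1- libraries of mice 1 to 4 held 10, 4, 66 and 131 counts and the Dll1+ libraries 3, 2, 21 and 113 counts. In CPM these were 0.341, 0.139, 0.529 and 4.33 in Dll1- cells, and 0.105, 0.0447, 0.320 and 2.03 in Dll1+ cells. The 2 counts in the Dll1+ cells of mouse 2 lay under the floor of 3 counts. Mmp10 passed the filter on low counts mainly through the mCh libraries. Every mouse was lower in Dll1+ cells, by 1.65-fold to 3.26-fold, while the groups overlapped across mice. The fitted decrease was 2.15-fold (log2 -1.10, SE 0.269, edgeR adjusted p = 0.0474, n = 4 mice). In the GFP mice the 14 counts in Dll1- against 5 in Dll1+ cells gave a ratio of 3.53 with an exact 95% interval of 1.20 to 12.5, which covers counting error only. The adjusted p was between 0.0948 and 0.141 without any of the 4 mice in turn, 0.0604 with no filter on low counts, 0.0567 with DESeq2 and 0.438 without the mouse block.

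**Figure D2:**
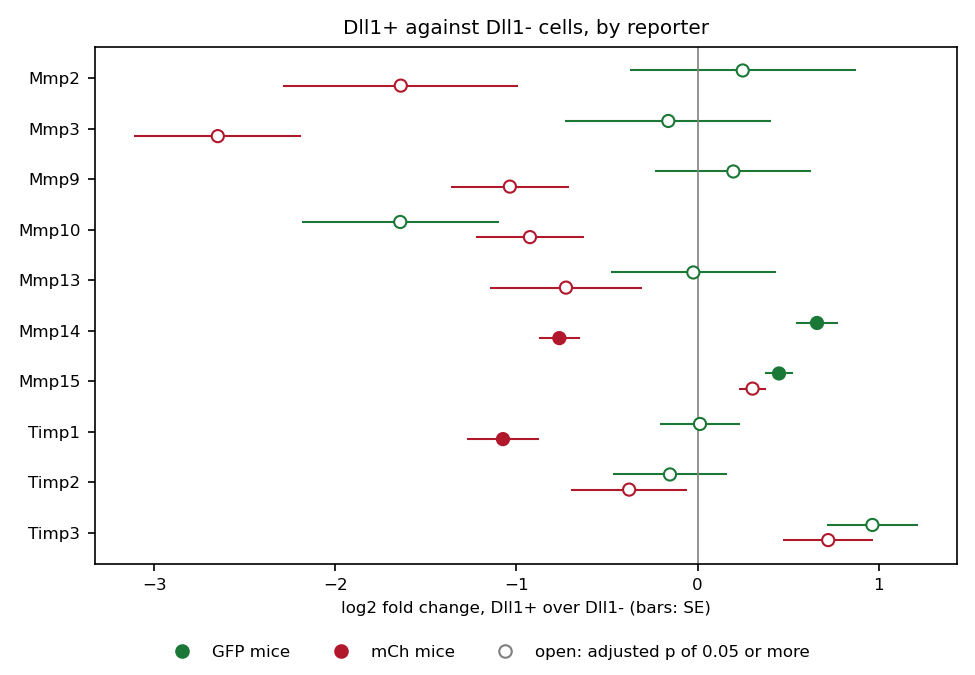
Fitted log2 fold change of each gene in Dll1+ over Dll1- cells, separately for the 2 GFP mice (green) and the 2 mCh mice (red), with bars of 1 SE and filled points for an adjusted p under 0.05. Mmp14 lies at 0.66 in the GFP and -0.76 in the mCh mice, and Timp1 is called in the mCh mice at -1.07.

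With a separate effect for each reporter, Mmp14 and Mmp15 were higher in Dll1+ cells of the GFP mice, 2 of the 10 genes, and no gene was lower. In the same comparison 9.13% of all tested genes were called, 4.29% higher and 4.84% lower. In the mCh mice Mmp14 and Timp1 were lower, 2 of the 10 genes, and no gene was higher, where 11.8% of all genes were called, 5.51% higher and 6.25% lower. The median log2 fold change of the 10 genes was 0.11 in the GFP mice and -0.84 in the mCh mice, against -0.00932 and 0.0209 over all tested genes.

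Mmp14, or MT1-MMP, the surface collagenase that activates Mmp2, moved in opposite directions. In the GFP mice it was 70.0 and 65.1 CPM in Dll1- cells and 108 and 106 CPM in Dll1+ cells. In the mCh mice it was 203 and 421 CPM in Dll1- cells and 138 and 214 CPM in Dll1+ cells. The GFP groups did not overlap, with both Dll1+ libraries higher, and each mCh mouse was lower in Dll1+ cells although the mCh groups overlapped across mice. The increase in the GFP mice was 1.58-fold (log2 0.66, SE 0.116, edgeR adjusted p = 0.0224, n = 2 mice). The decrease in the mCh mice was 1.70-fold (log2 -0.76, SE 0.114, edgeR adjusted p = 0.0158, n = 2 mice). With both reporters together the log2 value was -0.0579 (SE 0.336, edgeR adjusted p = 0.919).

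The difference between the reporter effects of Mmp14 was 1.42 on the log2 scale (SE 0.163), with an unadjusted p of 9.33e-05 and an edgeR adjusted p of 0.0538. None of the 10 genes passed the threshold for that difference with edgeR, where 0.071% of all tested genes, or 13, were called. At an unadjusted p under 0.05 there were 3 of the 10 genes (Mmp3, Mmp14 and Timp1) among 2420 of all genes. DESeq2 called Mmp14 and Timp1, with an adjusted p of 1.03e-09 for Mmp14, and without mouse 3 edgeR called 5 genes, with an adjusted p of 0.00295 for Mmp14. Over the alternatives its adjusted p ran from 4.58e-15 with no filter on low counts to 0.574 without the mouse block. Within the GFP mice the adjusted p of Mmp14 was 0.175 without mouse 1, 0.213 without mouse 2 and 0.411 without the mouse block. Within the mCh mice it was 0.0778 when that reporter was fitted alone and 0.257 without the mouse block.

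The secreted inhibitor Timp1, induced in many stromal cells, was 33.2 and 64.4 CPM in the Dll1- cells of mice 3 and 4, and 20.1 and 23.9 CPM in their Dll1+ cells. Both mCh mice were lower in Dll1+ cells, and the groups did not overlap. The decrease was 2.11-fold (log2 -1.07, SE 0.198, edgeR adjusted p = 0.0316, n = 2 mice). In the GFP mice Timp1 was 8.15 and 5.68 CPM in Dll1- and 7.04 and 6.71 CPM in Dll1+ cells, with mouse 1 lower and mouse 2 higher in Dll1+ cells (log2 0.0134, SE 0.221, edgeR adjusted p = 0.978). The difference between the reporters was 1.09 on the log2 scale (SE 0.296, edgeR adjusted p = 0.246). The adjusted p in the mCh mice was 0.0547 without mouse 1, 0.0584 without mouse 2, 0.0795 without mouse 4, 0.0998 when that reporter was fitted alone and 0.118 without the mouse block.

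Mmp3, or stromelysin 1, had the largest fitted fold of the 10 genes in the mCh mice, without passing the threshold. It was 37.5 and 156.7 CPM in Dll1- cells of mice 3 and 4 and 10.3 and 14.6 CPM in Dll1+ cells, which was 3.65-fold and 10.7-fold lower. The mCh groups did not overlap, and the log2 fold change was -2.65 (SE 0.462, edgeR adjusted p = 0.0503, n = 2 mice). In the GFP mice Mmp3 was 1.98 and 4.99 CPM in Dll1- and 2.30 and 3.76 CPM in Dll1+ cells, and the groups overlapped. Its log2 fold change there was -0.16 (SE 0.568, edgeR adjusted p = 0.9), and without mouse 2 it was 0.22.

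The gelatinase Mmp2, which cuts denatured collagen and type IV collagen, gave 31.8 and 34.5 CPM in the Dll1- cells and 41.7 and 37.2 CPM in the Dll1+ cells of the GFP mice. In the mCh mice it was 273 and 668 CPM in Dll1- and 192 and 97.4 CPM in Dll1+ cells. The GFP mice were higher and the mCh mice lower in Dll1+ cells, and neither reporter's groups overlapped. The log2 fold change was 0.25 (SE 0.623, edgeR adjusted p = 0.855) in the GFP mice and -1.64 (SE 0.649, edgeR adjusted p = 0.203) in the mCh mice, where Dll1+ cells were 6.86-fold lower in mouse 4 and 1.42-fold lower in mouse 3.

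The gelatinase Mmp9, abundant in neutrophils and macrophages, stayed low. It was 0.307 and 0.659 CPM in the Dll1- and 0.384 and 0.716 CPM in the Dll1+ cells of the GFP mice, and 2.25 and 7.43 CPM against 1.62 and 2.46 CPM in those of the mCh mice. Each GFP mouse was slightly higher and each mCh mouse lower in Dll1+ cells, and the groups overlapped in both reporters. Its log2 fold change was 0.20 (SE 0.431, edgeR adjusted p = 0.824) and -1.04 (SE 0.325, edgeR adjusted p = 0.0905).

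Mmp13, the main rodent interstitial collagenase, was 3.14 and 5.96 CPM in the Dll1- and 4.71 and 4.0 CPM in the Dll1+ cells of the GFP mice. In the mCh mice it was 6.73 and 33.4 CPM in Dll1- and 6.36 and 13.0 CPM in Dll1+ cells. Mouse 1 was higher in Dll1+ cells and the other 3 mice lower, by 1.06-fold in mouse 3 and 2.56-fold in mouse 4 (log2 -0.39 over 4 mice, SE 0.319, edgeR adjusted p = 0.444).

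Timp2, the inhibitor that also helps Mmp14 activate Mmp2, was 264 and 201 CPM in the Dll1- and 217 and 198 CPM in the Dll1+ cells of the GFP mice. It was 304 and 381 CPM in Dll1- and 353 and 194 CPM in Dll1+ cells of the mCh mice. The groups overlapped in both reporters, and Timp2 was higher in the Dll1+ cells of mouse 3 and lower in those of the other 3 mice. Fitted over both reporters, the log2 value was -0.26 (SE 0.199, edgeR adjusted p = 0.404).

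Markers of other cell types were compared in the mCh mice, where Mmp14 and Timp1 were called lower in Dll1+ cells. With the same fit, 5 of the 12 fibroblast markers, 7 of the 8 pericyte markers, 3 of the 8 endothelial markers, 9 of the 9 macrophage markers and 4 of the 5 erythroid markers were lower in the Dll1+ cells of the mCh mice, and none was higher. Among the GFP mice none of the fibroblast, pericyte, endothelial or macrophage markers was called in either direction, and 1 erythroid marker was lower. The pericyte marker sum was 157 to 199 CPM in the GFP mice, 625 and 796 CPM in the mCh Dll1- cells and 202 and 194 CPM in the mCh Dll1+ cells. Notch3 made up most of that sum in the GFP mice (129 to 163 CPM) and in the mCh Dll1+ cells (110 and 102 CPM). Pdgfrb, Rgs5, Cspg4, Kcnj8, Des and Higd1b were higher in both mCh Dll1+ libraries than in any GFP library. Abcc9 overlapped between them. In mouse 4 the fibroblast marker sum was 6.31-fold and Mmp2 6.86-fold lower in Dll1+ cells, against 2.28-fold and 1.42-fold in mouse 3. The part of these cell types in the decreases of Mmp14 and Timp1, or in the values of Mmp2, Mmp3 and Mmp9, was not tested.

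**Figure D3:**
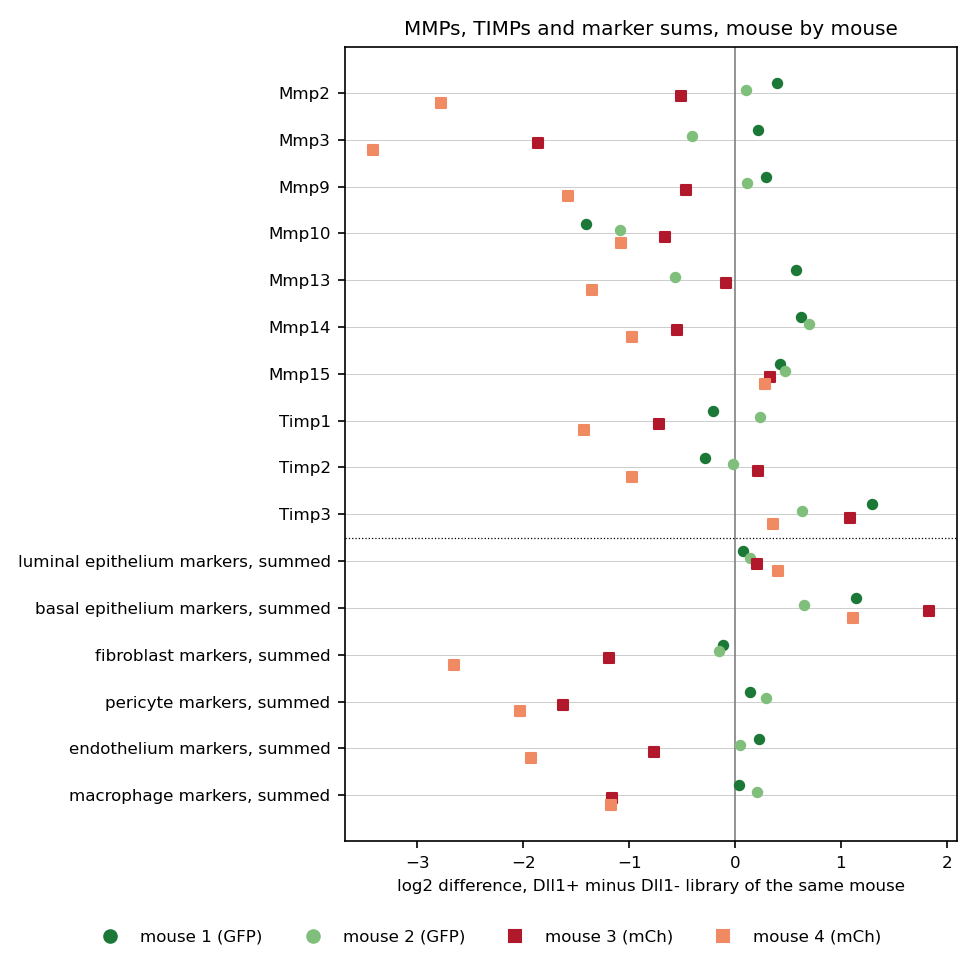
Difference on the log2 scale of the Dll1+ from the Dll1- library of a mouse, with a prior count of 2 for the genes, for the 10 genes and for the summed level of 6 marker lists (circles, GFP mice; squares, mCh mice). The fibroblast sum lies at -1.19 and -2.66 in the mCh mice and at -0.11 and -0.15 in the GFP mice.

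The reporters were also compared within each cell fraction, over 2 mice against 2, in a model of the 4 group means with no block because each mouse carries a single reporter. In Dll1- cells 5 of the 10 genes were higher and 1 was lower in the mCh mice, where 36.6% of all tested genes were called, 18.7% higher and 17.9% lower. Mmp3 was 27.8-fold higher (log2 4.80, SE 0.805, edgeR adjusted p = 0.00592) and Mmp2 14.2-fold higher (log2 3.83, SE 0.504, edgeR adjusted p = 0.00293). Mmp9 was 9.88-fold higher (log2 3.30, SE 0.72, edgeR adjusted p = 0.0135). Timp1 was 7.04-fold higher (log2 2.82, SE 0.343, edgeR adjusted p = 0.0025) and Mmp14 4.62-fold higher (log2 2.21, SE 0.36, edgeR adjusted p = 0.00542). Mmp15 alone was lower, by 1.41-fold (log2 -0.49, SE 0.0954, edgeR adjusted p = 0.00881). The log2 values of Mmp13, Timp2 and Timp3 were 2.13, 0.56 and 1.18 and did not pass the threshold. The 2 mCh and 2 GFP Dll1- libraries did not overlap for any of the 10 genes, called or not. The share of all tested genes without overlap was not counted, so it is not known whether the 10 genes stand out.

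In Dll1+ cells Mmp2 and Timp1 were higher and Mmp15 was lower in the mCh mice, 3 of the 10 genes, where 30.6% of all tested genes were called, 15.2% higher and 15.4% lower. Mmp2 was 3.67-fold higher (log2 1.87, SE 0.466, edgeR adjusted p = 0.0263) and Timp1 3.20-fold higher (log2 1.68, SE 0.33, edgeR adjusted p = 0.0132). Mmp15 was 1.56-fold lower (log2 -0.64, SE 0.0954, edgeR adjusted p = 0.00628), and its 2 mCh libraries lay below both GFP libraries in each fraction. The log2 values of Mmp3 (2.02), Mmp9 (1.86), Mmp13 (1.16), Mmp14 (0.72), Timp2 (0.40) and Timp3 (0.81) did not pass the threshold. Without mouse 1 or mouse 2, edgeR called 0 of the 10 genes in either fraction, with 6 in Dll1- and 2 in Dll1+ cells at an unadjusted p under 0.05. The adjusted p of the genes called above then lay between 0.0742 and 0.153 in Dll1- and between 0.127 and 0.24 in Dll1+ cells. Without mouse 3, 10 genes were called in Dll1- and 9 in Dll1+ cells, and without mouse 4, 6 and 5 were. DESeq2 called 9 and 6 with all mice. With the mouse as a random effect in limma voom, 5 were called in Dll1- and 2 in Dll1+ cells, without Mmp9 and without Mmp2 respectively.

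Mmp10 had a mean of 2.43 CPM in the mCh against 0.24 CPM in the GFP Dll1- cells, and of 1.18 against 0.0747 CPM in Dll1+ cells. The fitted folds were 9.72 (log2 3.28, SE 1.32) and 16.2 (log2 4.02, SE 1.52). With the counts of a group pooled, so that the deeper library of mouse 3 weighs more, 197 against 14 counts in Dll1- cells gave a CPM ratio of 5.28 with an exact 95% interval of 3.07 to 9.83. In Dll1+ cells 134 against 5 pooled counts gave 16.2 with an interval of 6.79 to 50.8. These intervals cover counting error and not the spread between mice. Mmp10 held 2 to 10 counts in the GFP libraries and passed the filter on low counts mainly through the mCh libraries, where it was high. The intervals and tests of Mmp10 between reporters are therefore not independent of how it was kept. In each fraction both mCh libraries were above both GFP libraries, but mouse 4 was 8.19-fold and 6.34-fold above mouse 3, and neither difference passed the threshold across mice (edgeR adjusted p = 0.096 and 0.087).

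The marker sums differed between the reporters as well. In Dll1- cells 12 of the 12 fibroblast, 7 of the 8 pericyte, 8 of the 8 endothelial, 9 of the 9 macrophage and 4 of the 5 erythroid markers were higher in the mCh mice. In Dll1+ cells these counts were 6, 5, 2, 6 and 4 in the same order, with 1 pericyte marker lower. Of the 9 basal markers 4 were higher and 1 lower in Dll1-, and 6 were higher in Dll1+ cells. Of the 10 luminal markers 1 was lower in Dll1- cells, and 1 was higher and 1 lower in Dll1+ cells. Of the 8 neutrophil markers 5 were tested, and 3 were higher and 1 lower in Dll1-, and 2 higher and 1 lower in Dll1+ cells. Their sum, most of it Ltf, was 815 to 1380 CPM in the GFP and 327 to 776 CPM in the mCh mice. The sum follows Ltf, at 803 to 1371 CPM in the GFP and 283 to 753 CPM in the mCh libraries. S100a8, S100a9 and Csf3r went the other way, with S100a8 at 5.84 to 10.1 CPM in the GFP and 19.2 to 36.3 CPM in the mCh libraries. Cxcr2 overlapped between the reporters. The part of these cell types in the higher Mmp2, Mmp3, Mmp9, Mmp14 and Timp1 of the mCh mice was not tested.

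**Figure D4:**
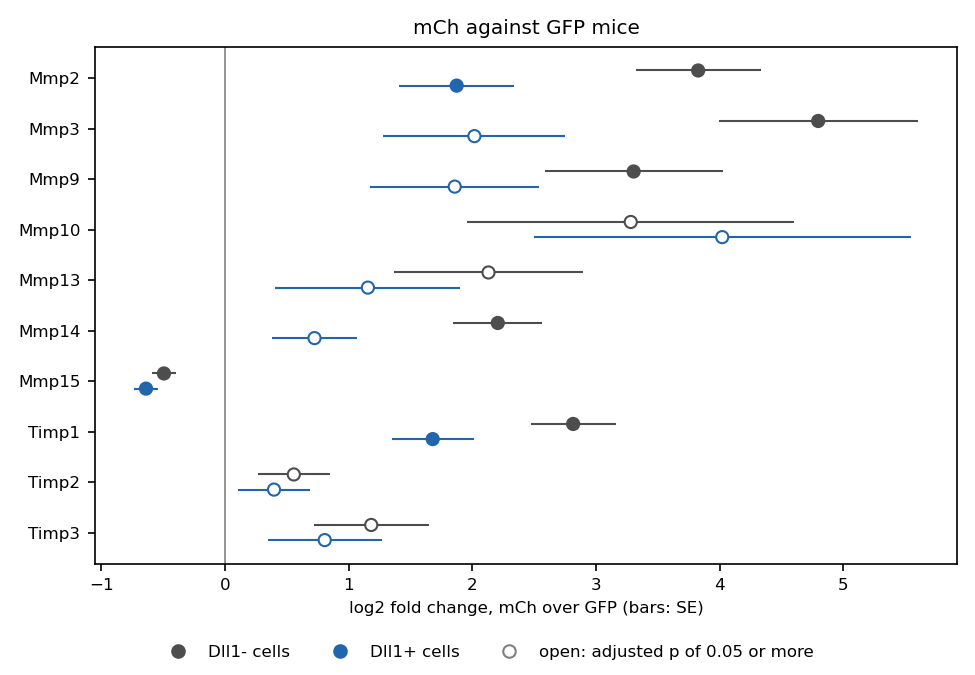
Fitted log2 fold change of each gene in mCh over GFP mice, for Dll1- cells (grey) and Dll1+ cells (blue), with bars of 1 SE and filled points for an adjusted p under 0.05. Of the 10 genes 9 lie above 0 in both fractions and Mmp15 lies below 0 in both, at -0.49 and -0.64.

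The balance of enzymes and inhibitors was described by summing the 7 MMPs and the 3 TIMPs per kilobase of exon, with no test. The MMP sum divided by the TIMP sum was 0.695 and 0.874 in the Dll1- and 0.953 and 1.05 in the Dll1+ cells of mice 1 and 2. In mice 3 and 4 it was 1.29 and 1.94 in Dll1- cells and 0.865 and 0.907 in Dll1+ cells. The ratio was thus higher in the Dll1+ cells of both GFP mice and lower in those of both mCh mice, and the 4 Dll1+ libraries lay closer together than the Dll1- libraries. Transcript sums rest on the annotated exon lengths and take no account of precursor activation or of protein.

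Within the TIMP sum the share of Timp3 was larger in Dll1+ cells of every mouse. It was 10.7, 16.4, 9.83 and 16.7% in the Dll1- cells of mice 1 to 4 and 26.2, 23.2, 19.1 and 36.3% in their Dll1+ cells, with no overlap between the groups. Timp2 still held the largest share in every library, from 41.3 to 78.7%. Within the MMP sum Mmp15 held 56.3 to 60.4% in the GFP mice, but 6.11 to 27.0% in the mCh mice, where Mmp2 held 26.5 to 49.9%.

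**Figure D5:**
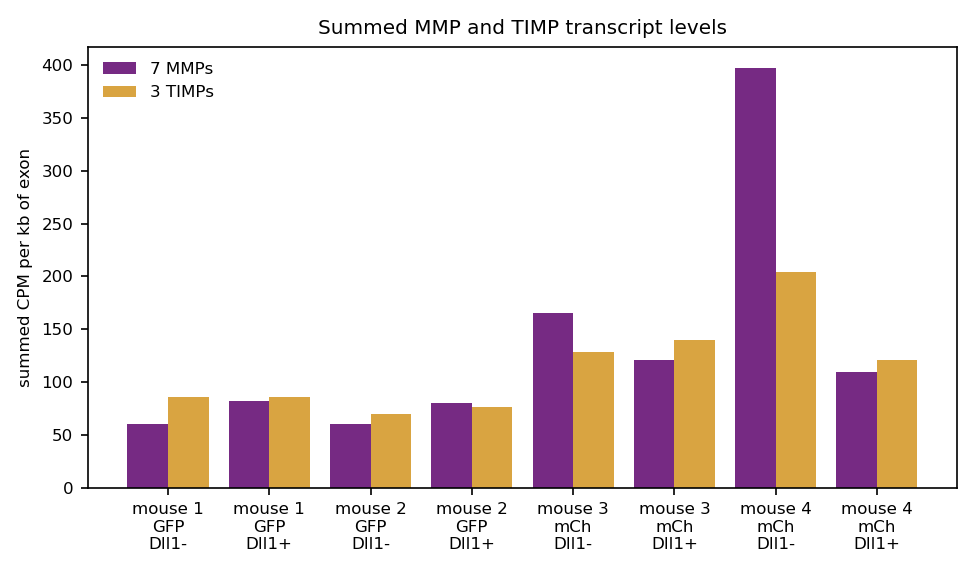
Summed levels of the 7 MMPs (purple) and the 3 TIMPs (yellow) in each library, in CPM per kilobase of exon. The MMP sum is highest in the Dll1- cells of mouse 4, at 397 CPM per kb, against 59.9 to 82.1 in the 4 GFP libraries.

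Other genes of the pathway were taken as 5 lists of 58 genes, of which 46 were tested, and their calls were not refitted under the alternatives. Over the 4 mice 4 were higher and 4 lower in Dll1+ cells, or 17.4% of those tested, against 14% of all genes. Of 9 tested other MMPs, Mmp25, a lipid-anchored MMP, was lower (log2 -1.85, SE 0.209, edgeR adjusted p = 0.00779). It was 3.86, 2.77, 4.59 and 3.37 CPM in the Dll1- cells and 0.802, 0.805, 1.74 and 0.828 CPM in the Dll1+ cells of mice 1 to 4, with no overlap between the groups, and it was called lower in each reporter too. Of the 2 tested other inhibitors A2m, a broad protease trap, was higher (log2 1.03, SE 0.068, edgeR adjusted p = 0.00534), and the membrane-bound inhibitor Reck was not called. A2m was called in each reporter, with log2 values of 0.98 in the GFP and 1.08 in the mCh mice.

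Of the 11 partners, scavengers and convertases, Lcn2, a lipocalin that binds Mmp9, and Cldn1, a tight junction protein, were higher, at log2 values of 0.49 and 0.50. Pcsk6, a convertase that cuts precursor proteins, was lower (log2 -1.13, SE 0.182, edgeR adjusted p = 0.02). In the plasminogen activation list Hpn, a surface serine protease, was higher (log2 0.82, SE 0.0648, edgeR adjusted p = 0.00534), 1 of 9 tested. Of 15 ADAM and ADAMTS proteases, Adamts14, a procollagen peptidase, and Adam8, a leukocyte sheddase, were lower, at -1.40 and -0.64.

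Taken by reporter, 4 of the 46 were higher and 4 lower in the GFP mice, and 4 were higher and 14 lower in the mCh mice, or 17.4% and 39.1% of those tested, against 9.13% and 11.8% of all genes. Higher in the GFP mice was Mmp16, a membrane-type MMP (log2 1.54, SE 0.239, edgeR adjusted p = 0.0159), and Adam10, a sheddase that cuts Notch receptors and their ligands, was lower (log2 -0.44, SE 0.0728, edgeR adjusted p = 0.0187). In the mCh mice all 4 of the other MMPs that were called, Mmp19, Mmp23, Mmp25 and Mmp28, were lower, and so were the plasminogen activators Plau (log2 -0.79) and Plat (log2 -1.82). Higher there were Cd44, a docking receptor for Mmp9, together with Cldn1, A2m and Hpn. Adamts4, Adamts12, Adam19 and Adamts14 were 4 of the 6 ADAM and ADAMTS genes called lower.

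Serpine2, an inhibitor of serine proteases that include plasminogen activators, was the single gene of the 46 for which the reporters differed by the test of the difference. It rose from 32.0 to 45.4 CPM and from 27.8 to 51.8 CPM in the GFP mice, and fell from 151 to 75.3 CPM and from 291 to 154 CPM in the mCh mice. The groups did not overlap in the GFP mice, and in the mCh mice the Dll1+ cells of mouse 4 lay just above the Dll1- cells of mouse 3. The log2 fold changes were 0.70 and -0.96, and the difference was 1.66 (SE 0.15, edgeR adjusted p = 0.0377).

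Between reporters, 22 of the 46 were higher and 2 lower in the mCh Dll1- cells, and 11 were higher and 1 lower in the mCh Dll1+ cells, or 52.2% and 26.1% of those tested, against 36.6% and 30.6% of all genes. In Dll1- cells these included Mmp19 (log2 4.35), Plat (3.67), the procollagen peptidase Adamts2 (3.47), Mmp23 (3.28) and Lrp1 (2.84), a receptor that clears proteases and their inhibitors. The lower genes were Adam10 (log2 -0.51) and the convertase Pcsk7 (log2 -0.40). In Dll1+ cells Mmp7, or matrilysin (log2 2.84), and Bsg, a surface inducer of MMPs (log2 0.91), were among the higher genes and Pcsk7 (log2 -0.29) was the lower gene. The value of Mmp7 rests on few counts, with 37 and 14 in the mCh Dll1+ and 2 in each of the GFP Dll1+ libraries.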

How the data were processed

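RNA-seq of 8 libraries of sorted tumor cells was used. The authors deposited estimated counts per gene, as whole numbers without normalization, which per the study's methods and the submitters' processing notes came from Salmon on mouse transcripts (GENCODE, GRCm38.p6), summed to genes with tximport. The Salmon version is not given in the sources used here. Replicates were not pooled, and libraries were TruSeq Stranded. Groups and mice were taken from the titles and mouse numbers in the labels.

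Counts were scaled by TMM in edgeR 4.0.16 (R 4.3.3) and filtered with filterByExpr on the Dll1 groups. Genes were tested with the robust quasi-likelihood F test, with Benjamini-Hochberg adjustment across 18322 genes and a threshold of 0.05. The model within mice held Dll1 status and the mouse, with 1 effect or a separate effect per reporter, and the model between reporters held the 4 group means. All fits used the 8 libraries. The SE is the log2 fold change divided by the root of F. CPM per kb used exon lengths of a GRCm38 annotation, which held 53668 of 53697 identifiers and all 10 genes. Log2 values per mouse used a prior count of 2. With 27301396 to 123907626 counts per library, intervals and floors cover counting error only, and not the spread between mice.

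The libraries of a mouse come from the same animal. Their deviations from the group means correlated across genes at -0.047 in the GFP and 0.55 in the mCh mice. Alternatives were RLE size factors, other filters (none, or a minimum of 10 counts per library), DESeq2 1.42.0, no mouse block, limma 3.58.1 voom with a random mouse effect, fits of fewer libraries and leaving out each mouse. The scripts were tested on simulated data. The genes named are the 10 members, and up to 4 genes per pathway list and comparison with the lowest p among those called. Some genes that this rule would name are not reported here. The members, lists and markers were chosen with earlier results of these data known, so no count over them is independent evidence. Other genes and data of the study were not analysed here.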

Additional observations from a re-analysis of the deposited data

Results flagged for a closer look

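The effect of Dll1 status had opposite signs in the 2 reporters in every mouse for 3 of the 10 genes. The share of all tested genes with this pattern was not counted, so it is not known whether 3 of the 10 is more than usual. For Mmp9 the GFP libraries held 9 and 19 counts in Dll1- and 11 and 32 counts in Dll1+ cells. The GFP minus mCh difference of the log2 fold change was 1.42 for Mmp14 (edgeR adjusted p = 0.0538), 1.89 for Mmp2 (edgeR adjusted p = 0.501) and 1.23 for Mmp9 (edgeR adjusted p = 0.407), so that none passed the test of the difference itself. For Serpine2 the difference of 1.66 passed that test (edgeR adjusted p = 0.0377). Fibroblast, pericyte, endothelial and macrophage marker sums were lower in the Dll1+ cells of both mCh mice, and their part in these differences was not tested.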

How the results depend on the processing

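The counts of genes called depended on the mice and on the model. Leaving out each mouse in turn gave 0 to 2 of the 10 genes over the 4 mice, 0 to 2 in the GFP mice, 2 to 5 in the mCh mice, 0 to 5 for the difference between reporters, 0 to 10 for mCh against GFP in Dll1- cells and 0 to 9 in Dll1+ cells. Where a mouse was left out of a reporter, the mouse that remained was assumed to vary like the others. Without the mouse block, which pairs the libraries of an animal, 1 gene was called over the 4 mice (Mmp15), 0 in the GFP and 0 in the mCh mice with edgeR, with 1 and 4 genes at an unadjusted p under 0.05. With each reporter fitted alone the mCh mice gave 0 genes, with 7 at an unadjusted p under 0.05. DESeq2 gave 5 genes in the mCh mice, 2 for the difference and 6 for mCh against GFP in Dll1+ cells. No filter on low counts gave 2 for the difference, and at least 10 counts in every library gave 4 in the mCh mice and 1 for the difference, with 8 genes tested. Using only the 4 libraries compared gave 5 in Dll1+ cells, and the random mouse effect, a block with a correlation of 0.448, changed neither count between reporters by over 1.5 times. RLE size factors gave counts within 1.5 times of those reported.

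Of 567 refits of a single gene, 460 kept direction and side of the threshold, 48 lost and 47 gained the call, and 12 changed sign, none of them called under the alternative. Leaving out each mouse in turn gave log2 fold changes of -0.31 to 0.25 for Mmp14 over 4 mice (0.12 without mouse 3 and 0.25 without mouse 4). In the GFP mice they ran from -0.40 to 0.22 for Mmp3, from -0.57 to 0.59 for Mmp13 and from -0.21 to 0.25 for Timp1, each turning without mouse 2. There Mmp13 was at 0.00855 with DESeq2 and Timp1 at -0.00981 without the mouse block. For Timp2 they ran from -1.0 to 0.19 in the mCh mice and for the difference from -0.33 to 0.86, both turning without mouse 4, and from -0.14 without mouse 3 to 0.77 for mCh against GFP in Dll1+ cells. The difference for Timp3 ran from -0.0815 to 0.64, and was -0.0805 without mouse 1 and -0.0815 without mouse 4. The cause of these changes was not tested. There were 2 mice per reporter, and in the GFP libraries Mmp10 had 2 to 10 counts and Mmp9 had 9 to 32.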

Other observations

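The levels of Mmp14 and Timp2, and of Mmp15 and Mmp14, were also set against each other per kilobase of exon. The level of Mmp14 divided by that of Timp2 was 0.173 and 0.212 in the Dll1- and 0.324 and 0.349 in the Dll1+ cells of the GFP mice. In mouse 3 it was 0.437 in Dll1- and 0.257 in Dll1+ cells, and in mouse 4 it was 0.723 in both. Mmp15 divided by Mmp14 was 3.08 and 3.12 in the Dll1- and 2.68 and 2.67 in the Dll1+ cells of the GFP mice. By this measure, which rests on annotated exon lengths, Mmp15 was the more abundant of the pair. In the Dll1- cells of the mCh mice it was 0.755 and 0.343, and in their Dll1+ cells it was 1.39 and 0.82. Mmp14 was thus the more abundant by this measure in both mCh Dll1- libraries and in the Dll1+ library of mouse 4. These ratios were not tested.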
